A study of Mus musculus with 6 samples.

Results

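The 38 mitosis and spindle checkpoint genes described here are G2/M and mitosis genes, taken without the genes named Kif, whose symbols were matched to the Ensembl gene IDs of the deposited count table. All 38 had exactly 1 row among the 35727 genes of that table, and all 38 passed the filter on low counts that left 12819 genes for testing. RNA sequencing was done on mouse undifferentiated pleomorphic sarcoma cells, a soft tissue tumour, sorted by red fluorescence out of tumours grown in mice. The 3 shPostn libraries come from cells carrying a virally delivered hairpin that targets Postn, which encodes periostin, a protein of the extracellular matrix. The 3 shSCR libraries come from cells with a scrambled hairpin. Both groups derive from 1 cell line, p53 KO Ccne1 OE, made from mesenchymal stem cells of female C57/Bl6 mice lacking p53, with a retroviral vector for cyclin E1 and a red fluorescent protein and 2 passages through wild-type mice. All 6 libraries therefore lack p53 and overexpress Ccne1, both of which bear on the cell cycle in control cells too. Sample titles call the shPostn group a knockout, whereas the protocol describes a hairpin. The labels name 1 line per hairpin and neither give the age of the mice nor say whether replicate libraries were made from different tumours. The p-values thus measure only the spread between these samples, which may be technical, and a difference between the lines cannot be told apart from an effect of the hairpin.

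Entry into mitosis is driven by the kinase CDK1 bound to cyclin A or B, which CDC25 phosphatases activate and which polo and Aurora kinases reinforce. Chromosomes then attach to the spindle through kinetochores, and the spindle checkpoint holds back the anaphase-promoting complex until every chromosome is attached. CDC20 next directs that complex to destroy securin and cyclin B, separase cuts cohesin, and the cell divides. Most of these genes are switched on together in G2 by complexes of the MuvB core with B-MYB and FOXM1, which act at promoters through the cell cycle genes homology region (CHR) and neighbouring CCAAT boxes bound by NF-Y. In bulk RNA, fewer cells in mitosis and less of these transcripts per cell cannot be told apart.

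Promoter windows of the RefSeq table (GRCm38.p6) were searched on all chromosomes but 18. There 32 of the 38 genes had windows, as 35 windows of 300 bases around annotated starts. The CHR letters TTTGAA, searched on both strands, stood in 71.4% of the member windows and in 17.9% of all 32851 windows searched. The CCAAT box letters CCAAT, also on both strands, stood in 82.9% of the member windows and 37.4% of all windows. Both motifs stood together in 65.7% of the member windows and 6.95% of all windows. These shares describe the letters only. The stretches from 120 bases before to 29 after the start base are shown for Cdk1 (chr10:69352883-69353032, minus strand), Cdc20 (chr4:118437314-118437463, minus strand), Ube2c (chr2:164769809-164769958, plus strand) and Top2a (chr11:99024160-99024309, minus strand) as examples that hold both motifs, picked after the matches were seen. Those of Cdca8 (chr4:124936888-124937037, minus strand) and Pttg1 (chr11:43425952-43426101, minus strand) are shown because these genes passed the test described further on. Cdc25c also passed, and no stretch is shown for it. Capitals mark TTTGAA or CCAAT on either strand, read 5′ to 3′ along the gene.
Cdk1: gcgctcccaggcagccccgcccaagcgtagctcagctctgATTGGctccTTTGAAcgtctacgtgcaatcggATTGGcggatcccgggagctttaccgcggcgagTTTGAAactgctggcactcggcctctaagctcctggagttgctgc
Cdc20: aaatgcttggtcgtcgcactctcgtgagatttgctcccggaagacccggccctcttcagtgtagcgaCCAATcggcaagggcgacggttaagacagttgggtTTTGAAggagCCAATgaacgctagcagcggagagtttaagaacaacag
Ube2c: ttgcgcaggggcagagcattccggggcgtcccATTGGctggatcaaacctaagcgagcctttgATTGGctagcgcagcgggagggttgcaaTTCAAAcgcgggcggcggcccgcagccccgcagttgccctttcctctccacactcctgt
Top2a: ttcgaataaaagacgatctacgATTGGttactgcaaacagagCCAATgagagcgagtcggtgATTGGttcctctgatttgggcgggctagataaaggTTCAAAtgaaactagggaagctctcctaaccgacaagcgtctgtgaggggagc
Cdca8: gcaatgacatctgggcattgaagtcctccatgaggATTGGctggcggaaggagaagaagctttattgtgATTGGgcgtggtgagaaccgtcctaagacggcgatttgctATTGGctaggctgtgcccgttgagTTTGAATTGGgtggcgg
Pttg1: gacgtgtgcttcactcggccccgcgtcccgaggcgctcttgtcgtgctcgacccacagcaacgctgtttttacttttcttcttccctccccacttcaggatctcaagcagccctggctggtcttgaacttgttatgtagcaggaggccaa
In the Cdca8 stretch the CHR and a CCAAT box share 1 base, so their capitals run together. The Pttg1 stretch holds neither set of letters. It surrounds the RefSeq start and lies wholly inside the gene as counted, whose GENCODE 5′ end is at 43426251, so bases next to that end are not shown. The Cdca8 stretch likewise lies inside the GENCODE span of its gene, whose 5′ end is at 124939311.

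Postn (ENSMUSG00000027750), the targeted gene, had 217, 471 and 638 CPM (counts relative to the effective library size) in the shPostn libraries, against 4094, 3600 and 3223 CPM in the shSCR libraries. That is 12.1% of the control mean, with a log2 fold change of −3.04 (SE 0.41, edgeR adjusted p = 0.0125), and the exact 2-sided permutation test of the CPM gave p = 0.1, the smallest that 3 against 3 allow. The edgeR adjusted p was 0.0532 without shSCR replicate 1 and 0.0542 without shSCR replicate 2. Libraries held between 19603269 and 20376554 counts. The 10 markers of mesenchymal cells, the labelled origin, summed to 37421, 46855 and 58254 CPM in the shPostn libraries and to 45623, 50119 and 49660 CPM in the shSCR libraries. Of them the transcription factor gene Twist1 rose (log2 fold change 0.54, edgeR adjusted p = 0.0214) and 9 did not pass. The edgeR adjusted p of Twist1 lay between 0.0509 and 0.105 on leaving out any library except shPostn replicate 3. Twist1 lies on chromosome 12, whose 468 tested genes had a median log2 fold change of 0.39. With each chromosome's median taken out, Twist1 had a log2 fold change of 0.15 (edgeR adjusted p = 0.442). The 21 leukocyte markers summed to 236, 106 and 1655 CPM in the shPostn libraries and to 362, 257 and 152 CPM in the shSCR libraries, so shPostn replicate 3 stood apart from the rest. T, B and NK cell markers summed to at most 3.54 CPM, endothelial markers to at most 6.64 CPM and erythroid markers to at most 27.6 CPM, the last 2 again highest in shPostn replicate 3.

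Most mitosis genes lay within a small distance of their control level in shPostn cells. At an edgeR adjusted p of 0.05, 3 of the 38 genes fell and 0 rose, leaving 35 that missed the threshold, where 5.53% of all 12819 genes fell, 4.61% rose and 10.1% were called in either direction; the members' share of 7.89% lies near that background. The genes that fell were Cdca8, Cdc25c and Pttg1. DESeq2 called 4 lower (Cdca8, Cdc25c, Foxm1 and Espl1), where it called 1007 of all 12819 genes lower and 15.4% in either direction. With limma-voom 3 were called lower, where 759 of all 12819 genes were called lower and 10.5% in either direction. Neither method called a member higher or any gene of the checkpoint, kinetochore, spindle microtubule or cytokinesis groups. The median log2 fold change was −0.15, against 0.01 over all genes tested, and 34 of the 38 values were below 0, against 48.4% of all genes. An unadjusted p under 0.05 was seen for 14 members (36.8%), against 27% of all genes. For 18 members (47.4%) the shPostn and shSCR libraries were fully separated, all of them lower in shPostn, against 33.6% of all genes in either direction and 17% lower in shPostn. The 95% intervals of the log2 fold changes lay wholly inside a 2-fold change for all 38 genes, inside a 1.5-fold change for 35, and included 0 for 24. The members had between 251 and 10505 counts in a library and SEs between 0.06 and 0.11 on the log2 scale.

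**Figure D1:**
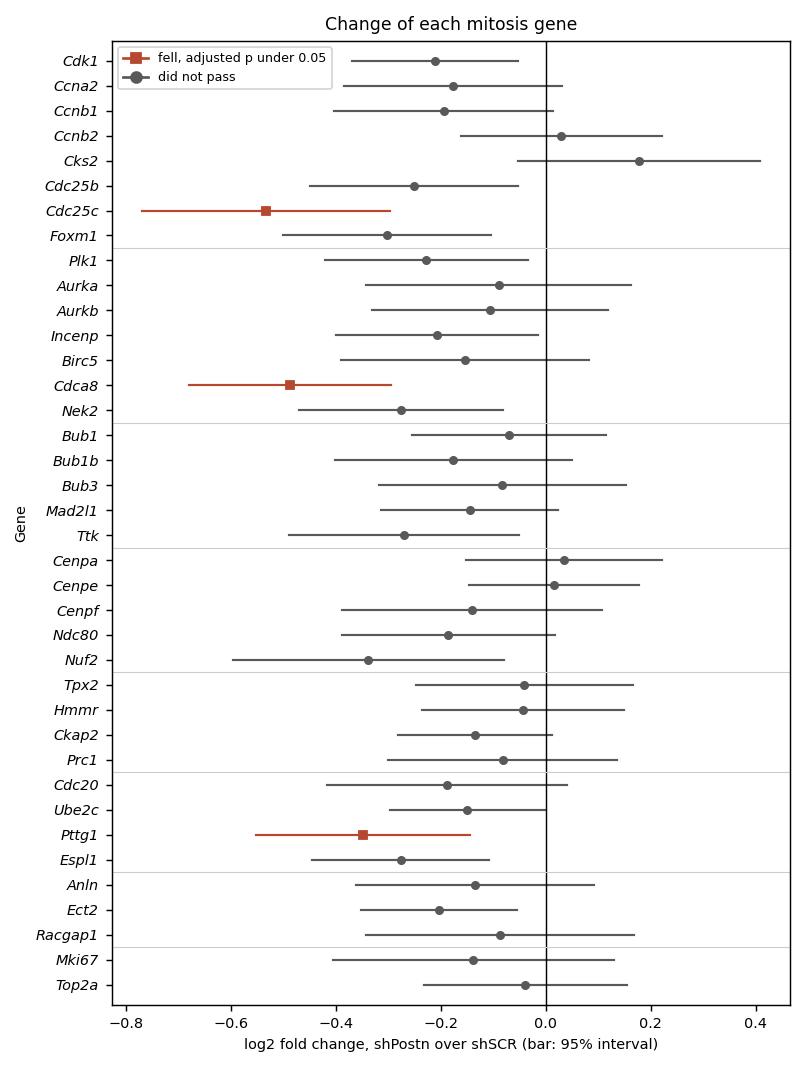
The log2 fold change of shPostn over shSCR is plotted for each of the 38 mitosis genes, in blocks by role from entry kinase and cyclins at the top to Mki67 and Top2a at the bottom; points are edgeR estimates and bars 95% intervals. Points lie between −0.53 (Cdc25c) and 0.18 (Cks2), 34 of 38 are below 0, and the 3 squares mark genes with an adjusted p under 0.05.

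Of the 8 genes of the entry machinery, Cdc25c fell, 0 rose and 7 did not pass, where 10.1% of all genes were called in either direction. Cdc25c (ENSMUSG00000044201; GRCm38 chromosome 18, 34732993 to 34751533, minus strand) encodes a phosphatase that removes inhibitory phosphates from CDK1. It measured 15.2, 13.2 and 12.7 CPM in the shPostn libraries and 18.9, 21.3 and 19.4 CPM in the shSCR libraries, so every shPostn library lay below every shSCR library. It averaged 13.7 ± 1.32 CPM in shPostn and 19.9 ± 1.30 CPM in shSCR (SD, n = 3 each), with a log2 fold change of −0.53 (SE 0.10, edgeR adjusted p = 0.0209). Chromosome 18 moved as a whole in these libraries, with a median log2 fold change of −0.45 over its 343 tested genes. The 110 tested genes within 5 Mb of Cdc25c had a median of −0.47, and 44 of them fell. With each chromosome's median taken out, Cdc25c had a log2 fold change of −0.08 (edgeR adjusted p = 0.67), so its call ended there. It also ended without shPostn replicate 2 and without each shSCR library in turn, where the edgeR adjusted p lay between 0.0618 and 0.0964.

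Foxm1, the transcription factor that activates many of the other genes, measured 161, 157 and 135 CPM in the shPostn libraries and 179.5, 198 and 181 CPM in the shSCR libraries. Its groups did not overlap, and its log2 fold change of −0.30 (SE 0.08) missed the threshold (edgeR adjusted p = 0.0664); DESeq2 gave an adjusted p of 0.0124. The related phosphatase gene Cdc25b measured 55.9, 66.02 and 58.01 CPM in shPostn and 66.03, 74.8 and 73.3 CPM in shSCR (log2 fold change −0.25). All Cdc25b values in shPostn were lower, by a narrow gap.

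Cdk1, the kinase itself, measured 73.4, 77.7 and 71.8 CPM in shPostn and 87.9, 90.1 and 80.2 CPM in shSCR, again without overlap (log2 fold change −0.21, edgeR adjusted p = 0.0932). The cyclin genes Ccnb1 and Ccna2 had groups separated by narrow gaps and did not pass either. Ccnb1, cyclin B1, measured 73.7, 71.02 and 63.8 CPM in shPostn and 75.6, 88.2 and 74.8 CPM in shSCR (log2 fold change −0.19). Ccna2, cyclin A2, which also acts in S phase, measured 173, 169 and 146 CPM in shPostn and 174, 199 and 178 CPM in shSCR (log2 fold change −0.18).

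Ccnb2, cyclin B2, measured 54.5, 52.03 and 45.1 CPM in shPostn and 49.9, 50.8 and 47.8 CPM in shSCR, with overlapping groups and a log2 fold change of 0.03. Cks2, a small subunit that docks CDK1 on its substrates, had the highest log2 fold change of the 38 genes, 0.18 (95% interval −0.05 to 0.41). It measured 30.4, 29.3 and 24.7 CPM in shPostn and 25.7, 23.4 and 25.6 CPM in shSCR, so 2 shPostn libraries were above control and 1 was within it.

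Among the 7 mitotic kinases and chromosomal passenger genes Cdca8 fell and 0 rose, where 10.1% of all genes were called in either direction. The chromosomal passenger complex corrects faulty spindle attachments and consists of the kinase Aurora B (Aurkb), the scaffold Incenp, survivin (Birc5) and borealin, encoded by Cdca8 (ENSMUSG00000028873; GRCm38 chromosome 4, 124918465 to 124939311, minus strand). Cdca8 measured 55.8, 56.1 and 52.6 CPM in the shPostn libraries and 76.5, 84.6 and 69.5 CPM in the shSCR libraries. The shPostn libraries were tight and well below the lowest shSCR library. The mean was 54.8 ± 1.97 CPM in shPostn and 76.9 ± 7.57 CPM in shSCR (SD, n = 3 each), with a log2 fold change of −0.49 (SE 0.08, edgeR adjusted p = 0.0146). The other subunits did not pass, and no test compared the subunits with each other.

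Incenp measured 79.5, 91.2 and 82.2 CPM in shPostn and 94.6, 106 and 91.5 CPM in shSCR (log2 fold change −0.21), and its groups were separated by a small gap. Aurkb measured 44.9, 45.0 and 43.9 CPM in shPostn and 46.9, 54.7 and 42.4 CPM in shSCR (log2 fold change −0.11). Birc5 measured 47.2, 58.2 and 46.7 CPM in shPostn and 57.9, 58.9 and 52.4 CPM in shSCR (log2 fold change −0.15). The groups of both these genes overlapped.

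Cdca8 lies on chromosome 4, where the median log2 fold change of the 780 tested genes was −0.15. Within 5 Mb of it, 92 tested genes had a median of −0.17, with 19 that fell and 3 that rose. With chromosome medians taken out Cdca8 had a log2 fold change of −0.34 (edgeR adjusted p = 0.0605). The edgeR adjusted p was 0.0592 without shSCR replicate 1 and 0.0551 without shSCR replicate 2. A gene on the opposite strand, 9930104L06Rik, shares 232 exonic bases with Cdca8 and had 342, 430 and 388 counts in the shPostn libraries and 467, 438 and 443 counts in the shSCR libraries; libraries were strand-specific, and whether the counting used strand is not given in the sources used here.

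Plk1, the polo kinase of mitotic entry and exit, measured 47.5, 46.5 and 46.3 CPM in shPostn and 52.3, 61.3 and 50.7 CPM in shSCR (log2 fold change −0.23, edgeR adjusted p = 0.128). Nek2, a kinase of centrosome separation, measured 40.2, 34.8 and 35.1 CPM in shPostn and 42.3, 47.4 and 43.5 CPM in shSCR (log2 fold change −0.28, edgeR adjusted p = 0.0811). Both had groups that did not overlap and missed the threshold. Aurka, the Aurora kinase of spindle poles, measured 37.99, 38.5 and 31.4 CPM in shPostn and 36.7, 42.5 and 35.7 CPM in shSCR, with overlapping groups (log2 fold change −0.09).

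**Figure D2:**
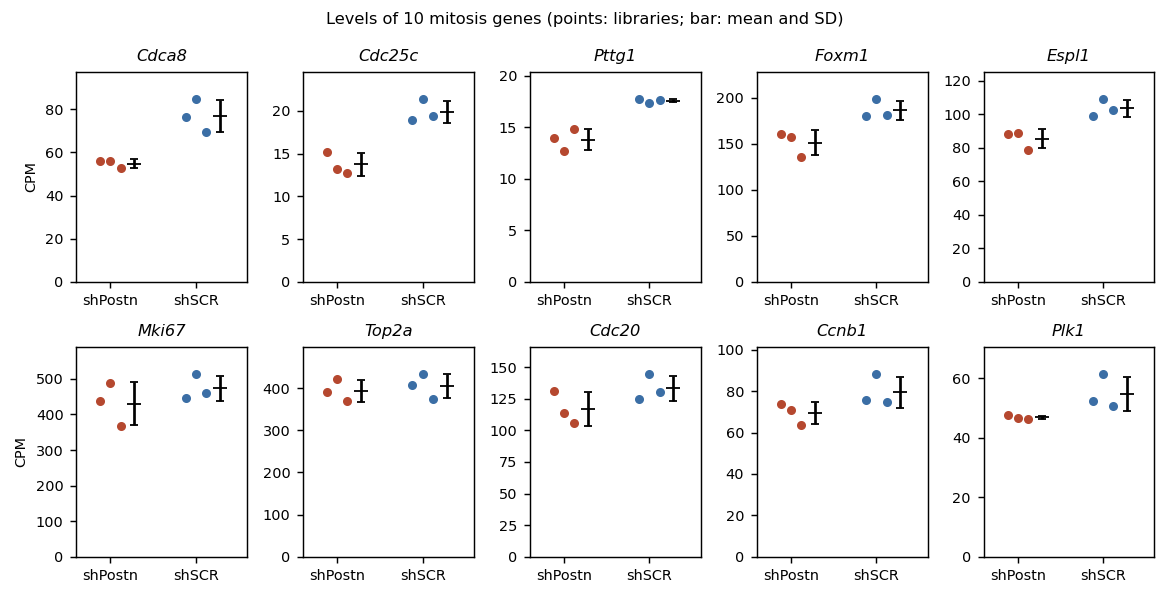
CPM in each library are shown for 10 mitosis genes, with shPostn on the left and shSCR on the right of each panel, each axis starting at 0, and the mean with its SD beside the points (n = 3 each). Cdca8, Cdc25c and Pttg1 passed the test; Foxm1, Espl1, Ccnb1 and Plk1 show separated groups that did not pass, and Mki67, Top2a and Cdc20 overlap.

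All 5 spindle checkpoint genes had log2 fold changes below 0, against 48.4% of all genes. In this group 0 passed the test, where 10.1% of all genes were called. The unadjusted p was under 0.05 for 1 (20%), against 27% of all genes. Ttk, the kinase that starts the checkpoint signal (also known as Mps1), measured 19.2, 22.5 and 19.4 CPM in shPostn and 23.8, 26.4 and 23.5 CPM in shSCR. Its groups did not overlap, and the log2 fold change was −0.27 (edgeR adjusted p = 0.115). Bub1b, which encodes the checkpoint effector BUBR1, measured 113, 122 and 99.6 CPM in shPostn and 121, 139 and 119.7 CPM in shSCR (log2 fold change −0.18). Mad2l1, which encodes the CDC20 inhibitor MAD2, measured 72.1, 63.4 and 61.9 CPM in shPostn and 71.8, 73.9 and 72.7 CPM in shSCR (log2 fold change −0.15). In both genes at least 1 shPostn library reached the control range. Bub1, a kinetochore kinase, and Bub3, the shared partner of BUB1 and BUBR1, had log2 fold changes of −0.07 and −0.08 with overlapping groups.

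Kinetochore and centromere genes gave no call among 5, where 10.1% of all genes were called. Of the 5, 1 (20%) had an unadjusted p under 0.05, against 27% of all genes. Nuf2, a subunit of the NDC80 complex that grips microtubules, measured 33.4, 34.4 and 27.5 CPM in shPostn and 40.8, 43.4 and 36.3 CPM in shSCR. Its log2 fold change of −0.34 was the lowest of the group (edgeR adjusted p = 0.0979), and its groups did not overlap. Ndc80 itself measured 29.5, 29.3 and 25.3 CPM in shPostn and 32.1, 33.4 and 30.3 CPM in shSCR (log2 fold change −0.19), also without overlap. Cenpa, the histone H3 variant that marks centromeres, measured 69.9, 57.7 and 63.6 CPM in shPostn and 62.05, 64.4 and 60.3 CPM in shSCR. Its log2 fold change was 0.03 and its groups overlapped. Cenpe, a kinetochore motor that itself belongs to the kinesin family, had a log2 fold change of 0.02, which was −0.0033 with upper quartile factors, and Cenpf, a large kinetochore protein, had one of −0.14.

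The 4 spindle microtubule genes had a median log2 fold change of −0.06, against −0.15 for all 38 mitosis genes. They gave 0 calls and 0 unadjusted p under 0.05, where these shares were 10.1% and 27% of all genes. Tpx2, which activates Aurora A on the spindle, had a log2 fold change of −0.04 (95% interval −0.25 to 0.17) and Hmmr, a spindle-associated protein, one of −0.04 (−0.24 to 0.15). Prc1, which bundles microtubules of the midzone, had a log2 fold change of −0.08 (−0.30 to 0.14) and overlapping groups. Ckap2, a spindle-associated protein, measured 44.7, 42.8 and 40.9 CPM in shPostn and 48.1, 47.6 and 45.3 CPM in shSCR, without overlap (log2 fold change −0.13). Of these 4, Ckap2 alone had separated groups.

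Of the 4 genes of anaphase and mitotic exit Pttg1 fell and 0 rose, where 10.1% of all genes were called in either direction. Pttg1 (ENSMUSG00000020415; GRCm38 chromosome 11, 43420250 to 43426251, minus strand) encodes securin, the inhibitor of separase. It measured 13.9, 12.7 and 14.8 CPM in the shPostn libraries and 17.7, 17.4 and 17.7 CPM in the shSCR libraries, all shPostn values being lower. The mean was 13.8 ± 1.06 CPM in shPostn and 17.6 ± 0.171 CPM in shSCR (SD, n = 3 each), with a log2 fold change of −0.35 (SE 0.09, edgeR adjusted p = 0.0478). Among the 18 tested genes within 5 Mb the log2 fold changes had a median of 0.09, with 0 calls, and with chromosome medians taken out Pttg1 alone of the 38 genes passed (log2 fold change −0.43, edgeR adjusted p = 0.0411). Its call was close to the threshold: it ended with DESeq2 (adjusted p = 0.0644), with relative log expression factors (edgeR adjusted p = 0.0504), with no low count filter (0.0627) and on leaving out any library except shPostn replicate 3, where the edgeR adjusted p lay between 0.0897 and 0.15.

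Espl1, the gene of separase itself, measured 88.4, 89.0 and 78.7 CPM in shPostn and 98.9, 109 and 102 CPM in shSCR. The groups were apart, and the log2 fold change of −0.28 (SE 0.07) stood just outside the threshold (edgeR adjusted p = 0.0547); DESeq2 gave an adjusted p of 0.0137. Ube2c, the ubiquitin-conjugating enzyme of the anaphase-promoting complex, measured 70.1, 71.4 and 67.5 CPM in shPostn and 77.1, 81.7 and 73.0 CPM in shSCR (log2 fold change −0.15, edgeR adjusted p = 0.18). Cdc20, the activator of that complex, measured 132, 114 and 106 CPM in shPostn and 125, 144 and 131 CPM in shSCR (log2 fold change −0.19, edgeR adjusted p = 0.265). For Ube2c the groups did not overlap, and for Cdc20 they did. Cdc20 also lies on chromosome 4, and the 86 tested genes within 5 Mb of it had a median of −0.18.

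The cytokinesis genes gave no call among 3, where 10.1% of all genes were called. For 1 of them (33.3%) the unadjusted p was under 0.05, against 27% of all genes. Ect2, the exchange factor that activates RhoA at the division plane, measured 49.2, 47.6 and 46.3 CPM in shPostn and 56.7, 56.5 and 51.6 CPM in shSCR, without overlap (log2 fold change −0.20, edgeR adjusted p = 0.088). Its partner in the midzone, Racgap1, measured 223, 214 and 171 CPM in shPostn and 206, 230.5 and 211 CPM in shSCR (log2 fold change −0.09). Anln, the contractile ring protein anillin, measured 161, 155 and 127 CPM in shPostn and 165, 166 and 155 CPM in shSCR (log2 fold change −0.14). In the last 2 genes shPostn replicate 3 lay well below both other shPostn libraries.

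The general proliferation marker Mki67 (Ki-67) measured 437, 487 and 367 CPM in the shPostn libraries and 447, 513 and 461 CPM in the shSCR libraries. The mean was 430.5 ± 60.3 CPM in shPostn and 474 ± 34.6 CPM in shSCR (SD, n = 3 each), with a log2 fold change of −0.14, a 95% interval of −0.41 to 0.13 and an edgeR adjusted p of 0.484. Top2a, the topoisomerase that untangles chromosomes, measured 390.4, 422 and 369.7 CPM in shPostn and 407, 433 and 375 CPM in shSCR (log2 fold change −0.04, 95% interval −0.23 to 0.15). The groups overlapped in both genes, which had the highest CPM of the 38.

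Levels were also set against transcript length, as mean CPM per kilobase of the principal GENCODE transcript, which leaves isoform use out of account. On this scale the highest level was that of Top2a in shPostn (75.5, against 77.5 in shSCR) and that of Ube2c in shSCR (79.9, against 72.05 in shPostn). Racgap1 (66.5), Cdc20 (65.3) and Ccna2 (54.8) followed in shPostn, at 70.6, 74.4 and 62.0 in shSCR. Mki67, with the most CPM, measured 42.8 in shPostn and 47.1 in shSCR per kilobase. The lowest levels per kilobase in shPostn were those of Cdc25c (7.06), Ttk (7.10) and Cenpf (7.46), against 10.2, 8.56 and 8.23 in shSCR. Genes of the entry machinery stood at both ends of this order in shPostn, Ccna2 near the top and Cdc25c at the bottom. In shSCR, Cenpf, Ttk and Mad2l1 (9.63) lay below Cdc25c. Other genes share exonic bases with Ccna2, Cdc20, Cdc25b and Prc1 on the opposite strand and had between 165 and 1805 counts in a library, so the values of these members carry the same limit as Cdca8. Annotated pseudogene copies of members, Ccnb1-ps and Ccnb2-ps, had at most 3 counts in a library.

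The mitosis genes also shared an order among single libraries. The library with the lowest value was shPostn replicate 3 for 30 of 38 genes, and the library with the highest was shSCR replicate 2 for 27. The mean log2 deviation of the 38 genes from their own 6-library means was −0.02, −0.04 and −0.20 in the shPostn libraries and 0.06, 0.16 and 0.03 in the shSCR libraries. Libraries thus differed within a group by about as much as the group means did. The within-group SD of the members' log2 CPM had a median of 0.11, against 0.10 for the 7858 tested genes in the same range of levels. Their summed level was 3592, 3615 and 3122 CPM in the shPostn libraries and 3711, 4037 and 3644 CPM in the shSCR libraries.

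**Figure D3:**
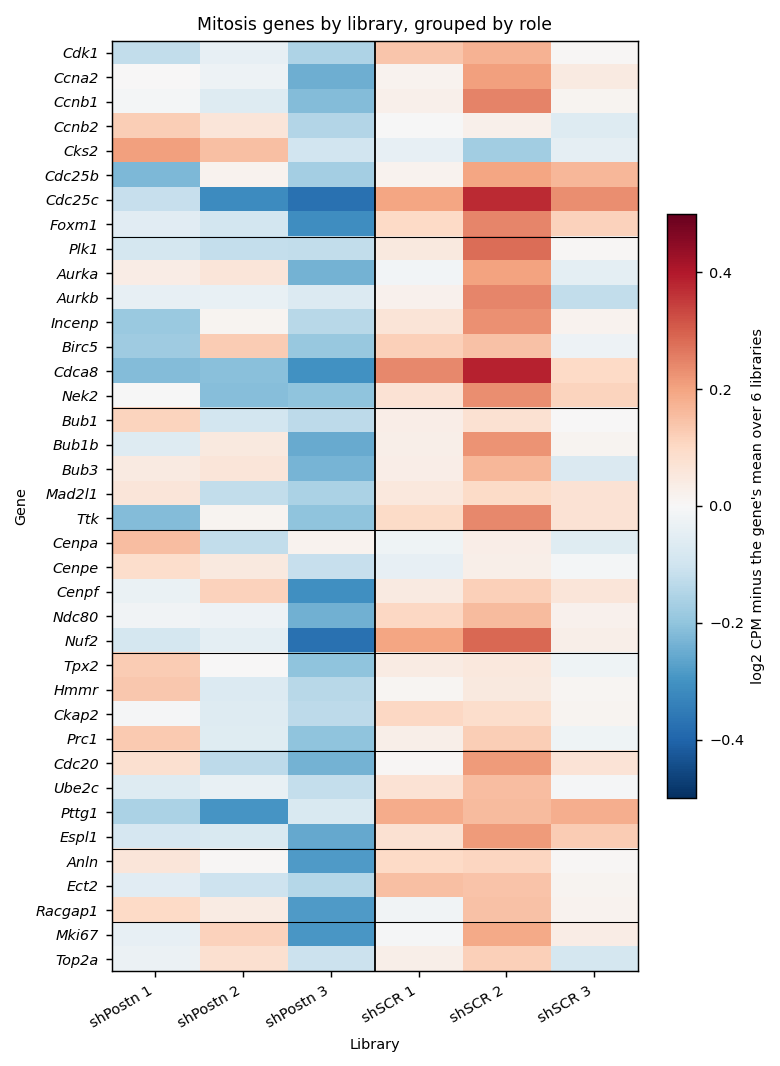
Each row is 1 of the 38 mitosis genes, in blocks by role, and each column a library, with shPostn left of the line and shSCR right of it; colour is log2 CPM minus the gene's mean over the 6 libraries. The column of shPostn replicate 3 is the lowest for 30 genes and that of shSCR replicate 2 the highest for 27.

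The library with the lowest mitosis genes, shPostn replicate 3, was also the one with the most leukocyte RNA: all 21 leukocyte markers were highest there, and Ptprc, the pan-leukocyte CD45 gene, measured 8.72, 3.43 and 29.5 CPM in the shPostn libraries and 6.54, 4.64 and 4.31 CPM in the shSCR libraries. Without that library 3 mitosis genes fell and 0 rose, where 1192 of 12957 genes fell and 17.1% were called in either direction. The median was then −0.10 with 10 values above 0. With the mean of 5 pan-leukocyte genes as a covariate 5 fell (Cdca8, Cdc25c, Pttg1, Foxm1 and Espl1) and the median was −0.14. In that fit 1127 of all 12819 genes fell and 16.2% were called in either direction. Without shSCR replicate 2, the library with the highest mitosis genes, 0 fell and the median was −0.12. In that edgeR fit 189 of 12988 genes fell and 2.36% were called in either direction. Without shSCR replicate 1, 0 fell, where 249 of 12989 genes fell and 3.3% were called in either direction. An unadjusted edgeR p under 0.05 was seen for 7 members without shSCR replicate 2 and for 9 without shSCR replicate 1. The share of all genes at that unadjusted threshold was not computed for these fits. Cdca8, Cdc25c and Pttg1 were the 3 that fell without shPostn replicate 3, and 0 of them passed without shSCR replicate 1 or without shSCR replicate 2. Why the calls differed between these fits was not tested.

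**Figure D4:**
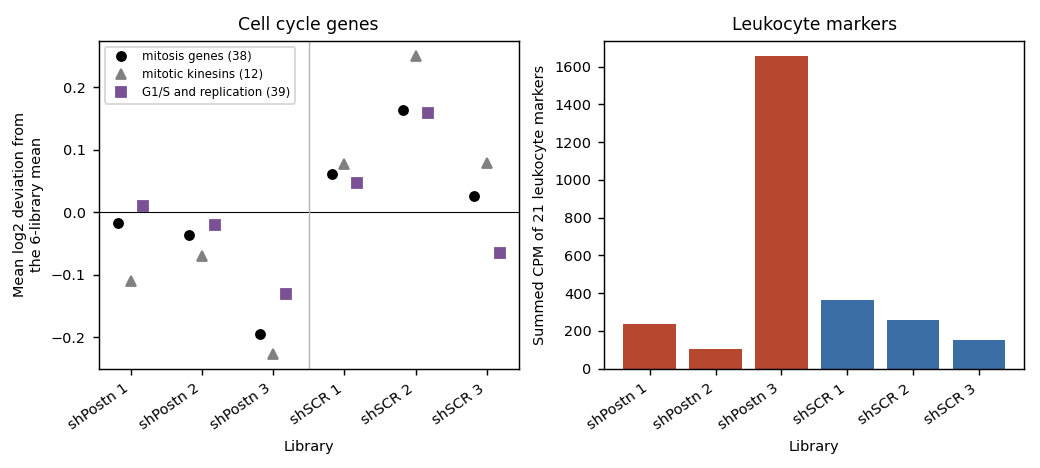
Left, the mean log2 deviation from the 6-library mean is plotted per library for the 38 mitosis genes, 12 mitotic kinesins and 39 G1/S and replication genes; right, bars give the summed CPM of 21 leukocyte markers, with shPostn left of shSCR in both. Mitosis genes are lowest, at −0.20, in shPostn replicate 3, where leukocyte markers reach 1655 CPM, and highest, at 0.16, in shSCR replicate 2.

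Related cell cycle genes gave medians between −0.32 and 0.03. Calls made up 25% of the mitotic kinesins, 19% of the MuvB, B-Myb and E2F regulators and 60% of the 5 tested CDK inhibitor genes. In every other related list the share was below the 10.1% of all genes called. These lists are small. The 12 mitotic kinesins had a median of −0.27 on the log2 scale; 3 fell and 0 rose, and 1 fell without shPostn replicate 2, without shSCR replicate 1 or without shSCR replicate 2. Kif20a, the midzone motor MKLP2, measured 89.2, 88.5 and 81.1 CPM in shPostn and 126, 134 and 123 CPM in shSCR (log2 fold change −0.57, edgeR adjusted p = 0.00545), and Kif2c, the microtubule depolymerase MCAK, had a log2 fold change of −0.43 (edgeR adjusted p = 0.0185). Of 39 genes of G1/S and DNA replication the polymerase gene Pole fell (−0.42), the ribonucleotide reductase gene Rrm2 rose (0.55) and 37 did not pass, with a median of −0.11. Both calls were lost on leaving out any library except shPostn replicate 3, with an edgeR adjusted p of 0.0705 to 0.102 for Pole and 0.0797 to 0.128 for Rrm2. Of 21 MuvB, B-Myb and E2F regulators 4 fell and 0 rose, among them E2f8 (−0.60) and E2f2 (−0.56); 0 passed without shPostn replicate 2, without shSCR replicate 1 or without shSCR replicate 2, and 1 without shSCR replicate 3.

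Of 17 genes of the anaphase-promoting complex and its regulators Cdc23, a subunit, fell (log2 fold change −0.46, edgeR adjusted p = 0.00873), 0 rose, and the median was 0.03. Of 22 other spindle and cytokinesis genes the augmin subunit genes Haus6 (−0.60) and Haus1 (−0.57) fell and 0 rose. Without shSCR replicate 2 neither passed (edgeR adjusted p = 0.0518 for Haus6 and 0.0992 for Haus1), and Haus1 was also lost without shPostn replicate 2, shSCR replicate 1 or shSCR replicate 3. No gene passed among 34 other kinetochore genes, 8 condensin genes, 12 cohesin genes, 13 other G2/M control genes and 6 tested checkpoint and centromere protection genes. An unadjusted p under 0.05 was seen for 8, 4, 1, 4 and 1 of them, against 27% of all genes. DESeq2 called 2, 2, 0, 0 and 0 of them, against 15.4% of all genes. Their most abundant members were Hjurp and Zwint (log2 fold change −0.12 and 0.24), Ncapd2 and Smc4 (−0.18 and −0.08), Rad21 and Smc1a (0.07 and 0.04), Ensa and Arpp19 (0.02 and 0.01), and Sgo2a and Mad1l1 (0.01 and −0.14). Over all tested members the ranges were wider. In the same order they were −0.48 to 0.34, −0.30 to 0.26, −0.14 to 0.20, −1.81 to 0.11 and −0.38 to 0.01. Of 5 tested CDK inhibitor genes, which encode brakes on the cell cycle kinases, Cdkn1b (p27) rose (0.29) and Cdkn2d (−0.37) and Cdkn2c (−0.32) fell. Of these 3 calls 0 passed without any 1 of the shSCR libraries, and 1 without shPostn replicate 1 (Cdkn2d) or shPostn replicate 2 (Cdkn2c).

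Calls among cell cycle genes fell largely on a few chromosomes. Taking the mitosis genes and these related lists together, 18 of 227 tested genes passed, 16 lower and 2 higher, and 12 of the 18 (66.7%) lie on chromosomes 4, 12 and 18. These chromosomes hold 11% of the 227 genes, and 36.5% of the 1300 genes called in all. Their median log2 fold changes were −0.15, 0.39 and −0.45, chromosomes 12 and 18 having the largest shifts of all. Among the 12, Kif20a, Cdc23 and Haus1 lie on chromosome 18 with Cdc25c, Kif2c, E2f2, Haus6 and Cdkn2c on chromosome 4 with Cdca8, and Rrm2 on chromosome 12. With chromosome medians taken out, 4 of the 18 still passed, namely Pttg1, Haus6, Cdkn1b and Cdkn2d, against 606 of the 1300 genes called in all. That fit called 640 genes. Calls were also lost for Pole, E2f8 and Kif22, which lie outside these chromosomes. Their log2 fold changes there were −0.44, −0.54 and −0.27 (edgeR adjusted p = 0.0531, 0.0533 and 0.104). The choice of these 3 chromosomes followed from earlier results of these data, so their share is a description.

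**Figure D5:**
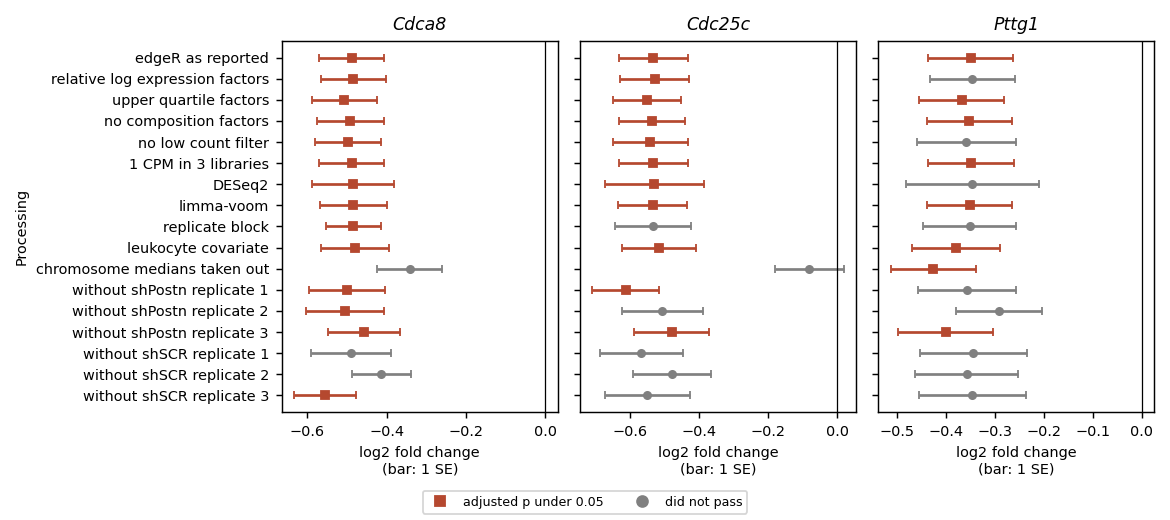
Log2 fold changes of Cdca8, Cdc25c and Pttg1 are plotted for the fit as reported and 16 other ways of processing the counts; bars are 1 SE, squares have an adjusted p under 0.05 and circles do not. All points lie below 0; Cdc25c comes closest, at −0.08 with chromosome medians taken out, and Pttg1 keeps its call in the fewest settings.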

How the data were processed

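Per the submitters' processing notes, Salmon and mm10 were used; no version or annotation is stated in those notes. The authors deposited estimated counts by Ensembl gene, and 0 of their values differed at all from a whole number. Per the labels, the mRNA libraries were strand-specific. IDs were matched to GENCODE M21 (GRCm38).

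The 3 shPostn and 3 shSCR libraries were compared with edgeR 4.0.16 (R 4.3.3; filterByExpr with minimum count 10, TMM factors, robust quasi-likelihood F-test, no covariate). Benjamini-Hochberg adjustment ran over all 12819 genes, at a threshold of 0.05. The test was tried on simulated data. Log2 fold changes are shPostn minus shSCR, and SE is the estimate's size over the square root of F.

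The members and lists were chosen with earlier results of these data known. All 38 members are named. Of each related cell cycle list, the 2 called genes with the largest change each way are named, or else the 2 most abundant. Cdkn2c, Kif22, Ptprc and Twist1 were added after their values were seen. For chromosome medians, each chromosome's median log2 fold change was put into the offsets. Other alternatives were relative log expression, upper quartile and no composition factors, other count filters, DESeq2 1.42.0, limma-voom (limma 3.58.1), a replicate block, a leukocyte covariate and leaving out each library. Within groups, replicates differed by more than sampling noise. Promoter windows on chromosome 18 were left out. The labels give no batch.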

Additional observations from a re-analysis of the deposited data

How the results depend on the processing

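Of 608 values of single mitosis genes under the alternatives 571 kept their direction and their side of the threshold, mostly values of genes that no fit called. Of the others, 18 lost a call, all of them values of Cdca8, Cdc25c and Pttg1, while 6 gained one and 13 changed sign. In any of the fits 5 of the 38 genes passed (Cdca8, Cdc25c, Pttg1, Foxm1 and Espl1). The count of mitosis genes that fell, 3 as reported, was 5 with the leukocyte covariate, 1 with chromosome medians taken out and between 0 (without shSCR replicate 1 or 2) and 3 with 1 library left out; the count that rose was 0 in every fit. The median log2 fold change of the 38 genes lay between −0.20 and −0.10 with 1 library left out and moved by less than the within-group SD of 0.09 in every fit. The count of all genes called, 1300, was 1973 with DESeq2, 2076 with the leukocyte covariate, 640 with chromosome medians taken out and between 307 (without shSCR replicate 2) and 2220 (without shPostn replicate 3) with 1 library left out. For Postn the log2 fold change lay between −3.40 and −2.71 with 1 library left out. Over all 12819 genes tested, replicate numbers did not pair the libraries: deviations from the group means of same-numbered libraries correlated at −0.41 to −0.08. The 38 mitosis genes alone had their lowest mean log2 deviation in replicate 3 of both groups (−0.20 in shPostn and 0.03 in shSCR). With the replicate block 735 genes were called, 1 mitosis gene fell (Cdca8, with edgeR adjusted p = 0.0585 for Cdc25c and 0.0993 for Pttg1), and Postn had a log2 fold change of −3.16 (edgeR adjusted p = 0.0592). Signs turned for 9 genes near 0: Cenpe was −0.0033 with upper quartile factors and −0.0043 with chromosome medians taken out, and the ranges with 1 library left out were −0.0231 to 0.0751 for Cenpe, −0.0264 to 0.106 for Ccnb2, −0.0363 to 0.102 for Cenpa, −0.142 to 0 for Aurka, −0.138 to 0.0079 for Bub3, −0.118 to 0.0434 for Tpx2, −0.127 to 0.0135 for Hmmr, −0.161 to 0.0221 for Racgap1 and −0.0916 to 0.0114 for Top2a. The cause of these shifts was not tested.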
